A study of Mus musculus with 6 samples.

Results

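The genes described here encode the glial cell line-derived neurotrophic factor (GDNF) family: the ligands Gdnf, Nrtn (neurturin), Artn (artemin) and Pspn (persephin), the co-receptors Gfra1, Gfra2, Gfra3 and Gfra4, and the shared receptor tyrosine kinase Ret. All 9 were measured, each by 1 probe set with a single gene symbol, among 19938 genes. The family was selected on an earlier analysis of these same arrays, in which Gfra1 was among the genes that differed between genotypes. The change of Gfra1 is therefore given as a description. Where it is counted among genes past a threshold, that is not read as evidence for its change. The other 8 genes were taken by family name.

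RNA came from the mandibular arches (the lower-jaw part of the first pharyngeal arch) of C57BL/6 mouse embryos at embryonic day 9.5, and each genotype, Tbx1+/+ (wild type) and Tbx1-/- (Tbx1 null), was measured on 3 Affymetrix Mouse Gene ST 1.0 arrays. The protein made by Tbx1 is a transcription factor of the T-box family that acts in the pharynx of the embryo, and the comparison asks what its loss does to transcript levels in the arch. To have enough RNA, the arches of 3 embryos of a genotype were combined, and whether each array had a pool of its own is not stated, so the spread behind each p-value may be partly technical. The sources used here do not give the part of Tbx1 that the null allele lacks.

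GDNF family ligands bind GFRA co-receptors, which are tethered to the membrane by a lipid anchor, and the complex brings RET molecules together so that their kinase is switched on. GDNF pairs preferentially with GFRA1, neurturin with GFRA2, artemin with GFRA3 and persephin with GFRA4. The pathway is best known for guiding enteric neural crest and ureteric bud outgrowth and for supporting cranial, sensory and motor neurons. GFRA1 can also act without RET, through the neural cell adhesion molecule NCAM.

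Values are log2 levels from robust multi-array averaging (RMA), with array medians between 7.98 and 8.04. Tbx1 itself lay at 11.64, 11.36 and 11.31 on wild type replicates 1, 2 and 3 and at 9.48, 9.39 and 9.63 on the Tbx1 null arrays, so the labels and the targeted gene go together. All 12 markers of arch mesenchyme were measured and none lay below the first quartile of mean levels, among them Prrx1, a homeobox gene of craniofacial mesenchyme, at 12.70 ± 0.06 (SD, n = 3) in wild type. The mean log2 level of 3 Y-linked genes was 5.73 on Tbx1 null replicate 3 and between 8.57 and 9.85 on the other arrays. The Tbx1 null arrays, at 9.58, 9.28 and 5.73, therefore did not all carry the same pool. The wild-type arrays also differed, at 8.57, 9.07 and 9.85 on replicates 1, 2 and 3. Whether each array had its own pool was not tested further. The part of embryo sex in the changes below was not tested. Precision was limited by the number of arrays, with a median SE of 0.058 for a log2 change. Signal over background could not be judged from these values. Of the 9 genes, 6 lay below the median of mean levels and none below the first quartile, so a filter on dim genes kept them all.

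Among the 9 genes, 1 passed an adjusted p of 0.05 as lower in Tbx1 null (Gfra1) and none as higher, where 0.0752% of all genes passed as lower and 0.0853% as higher. Since Gfra1 is the reason the family was chosen, nothing is read from that count, which was 0 when any wild-type array or Tbx1 null replicate 1 or 2 was left out. At an unadjusted limma p under 0.05 there was 1 lower gene (Gfra1) and 1 higher gene (Artn), beside 3.94% and 5.5% of all genes. The genotypes did not overlap for the same pair of genes, 1 lower and 1 higher, beside 7.06% of all genes for lower and 8.36% for higher. The median log2 change, Tbx1 null minus wild type, was -0.070 over the 9 genes and -0.0059 over the 8 without Gfra1, beside -0.0061 over all genes. With an array left out these medians ran from -0.12 (without wild type replicate 3) to -0.021 (without wild type replicate 1), and from -0.042 to 0.023 without Gfra1. The 8 genes other than Gfra1 had 4 changes below 0 and 4 above, from -0.14 to 0.21.

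**Figure D1:**
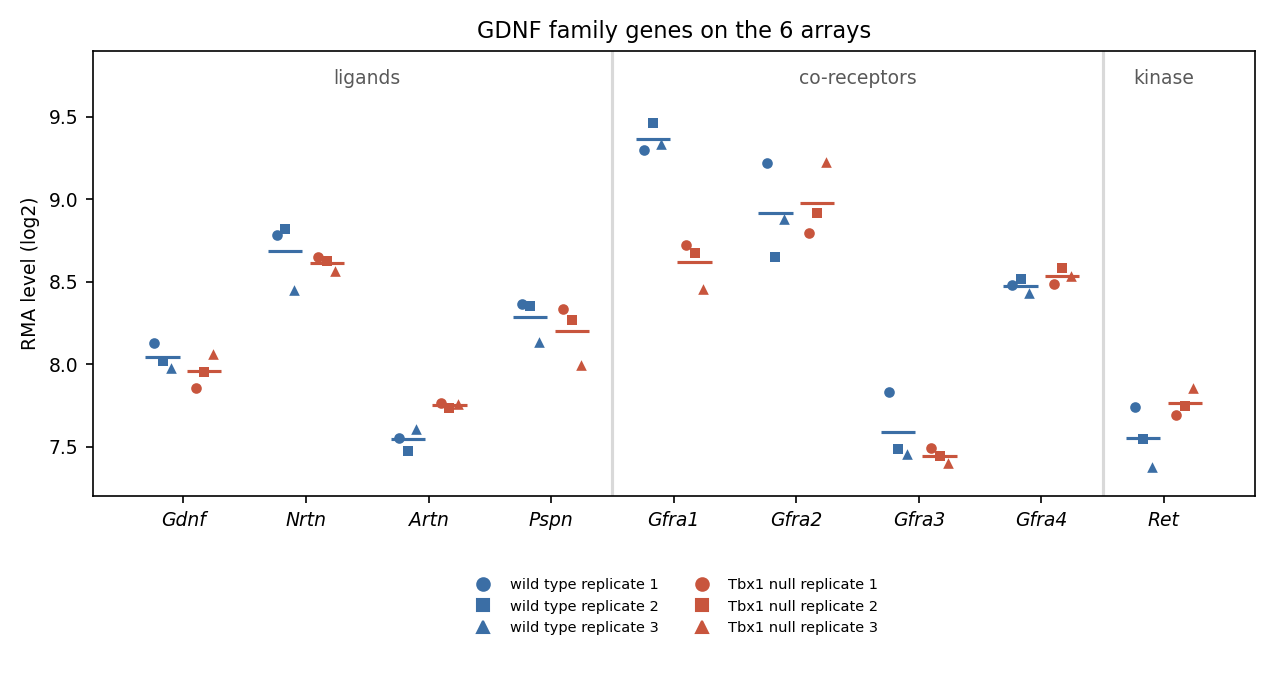
RMA level (log2) of each GDNF family gene on each of the 6 arrays, with wild type in blue and Tbx1 null in red, a symbol for each replicate number and a line at each genotype's mean. The genotypes are apart for Gfra1 (wild type 9.30 to 9.46, Tbx1 null 8.46 to 8.72) and, by a narrow margin, for Artn; they overlap for the other 7 genes. Levels of different genes come from different probes and are not comparable with each other.

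Gfra1, the co-receptor that captures GDNF, was lower in Tbx1 null. Its probe set (10468722, Entrez gene 14585) read 9.30, 9.46 and 9.34 on wild type replicates 1, 2 and 3 and 8.72, 8.68 and 8.46 on Tbx1 null replicates 1, 2 and 3. Every Tbx1 null array lay below every wild-type array, and Tbx1 null replicate 3 was the lowest. The means were 9.37 ± 0.09 and 8.62 ± 0.14 (SD, n = 3), a difference of -0.75 on the log2 scale (SE 0.08), or 1.68-fold lower. With 1 array left out at a time the change stayed between -0.80 and -0.67.

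For reference, the 250 bases before the Gfra1 start site are shown, as the promoter window of the family gene that differed most; they are from RefSeq, build GRCm38.p6, minus strand, chr19:58455399-58455648. The window lies inside the annotated span of the gene, whose farthest end is 298 bases upstream, and whether it is exonic or intronic in the longer transcripts was not resolved here. The T-box motif GGTGTG would be in capitals, on either strand, and the window has none.

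Gfra1 promoter: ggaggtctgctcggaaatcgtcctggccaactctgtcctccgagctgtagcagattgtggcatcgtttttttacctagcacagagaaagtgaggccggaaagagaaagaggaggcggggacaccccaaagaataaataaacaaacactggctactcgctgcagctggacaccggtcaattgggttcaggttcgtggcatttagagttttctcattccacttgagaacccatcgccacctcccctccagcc

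RefSeq promoter windows of 300 bases (250 before to 50 after the start) were found for 6 of the 9 genes, 8 windows in all; Gfra2, Gfra3 and Ret have no entry. Neither GGTGTG nor the longer AGGTGTGA, which contains it, occurred on either strand of these 8 windows. Among all 32851 windows 19.0% held the first and 1.28% the second. This says only that these letters are not in the windows searched.

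The other co-receptors did not pass. Gfra2, the neurturin co-receptor, read 9.22, 8.65 and 8.88 in wild type and 8.80, 8.92 and 9.23 in Tbx1 null. The highest array of each genotype lay at nearly the same level, and the genotypes overlapped, with wild type replicate 2 the lowest of the 6 arrays. The log2 change was 0.064 (95% confidence interval -0.30 to 0.43; limma adjusted p = 0.942), and it turned to -0.069 without wild type replicate 2 and to -0.059 without Tbx1 null replicate 3. Gfra2 varied more within a genotype than 99.0% of all genes (SD 0.26, pooled over the genotypes), and its interval was the widest of the family.

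Gfra3, the artemin co-receptor, read 7.83, 7.49 and 7.46 in wild type and 7.49, 7.44 and 7.40 in Tbx1 null. Wild type replicate 1 stood above the other 5 arrays, which lay between 7.40 and 7.49. The log2 change was -0.14 (95% confidence interval -0.37 to 0.080; limma adjusted p = 0.712) and became -0.025 without wild type replicate 1. Gfra4, the persephin co-receptor, read 8.48, 8.52 and 8.43 in wild type and 8.49, 8.59 and 8.53 in Tbx1 null. It was among the steadier genes of the family, with an SD within a genotype of 0.046, and its change of 0.058 had an interval of -0.053 to 0.17 (limma adjusted p = 0.780).

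Ret, the signalling receptor of the family, read 7.74, 7.55 and 7.38 in wild type and 7.69, 7.75 and 7.86 in Tbx1 null. The Tbx1 null arrays lay close together and wild type replicates 2 and 3 lay below them, while wild type replicate 1 fell among them. The means were 7.56 ± 0.18 and 7.77 ± 0.08, a log2 change of 0.21 with an interval of -0.0035 to 0.42 (limma adjusted p = 0.535; unadjusted p = 0.0530). Without wild type replicate 1 the change was 0.30 (adjusted p = 0.292), and without wild type replicate 3 it was 0.12.

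Among the ligands Artn stood apart by the smallness of its spread. It read 7.56, 7.47 and 7.61 in wild type and 7.77, 7.74 and 7.76 in Tbx1 null, so every Tbx1 null array lay above every wild-type array. The means were 7.55 ± 0.07 and 7.755 ± 0.017, a difference of 0.21 on the log2 scale, 1.16-fold higher (95% confidence interval 0.097 to 0.32 in log2). Its limma adjusted p was 0.201, so it did not pass. Over the alternative settings tried the adjusted p ranged from 0.0249 to 0.498, and it passed in 1 of them, with array weights.

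Gdnf, the preferred ligand of GFRA1, read 8.13, 8.02 and 7.98 in wild type and 7.86, 7.95 and 8.06 in Tbx1 null. The genotypes overlapped, and the log2 change was -0.087 (95% confidence interval -0.24 to 0.068; limma adjusted p = 0.760). Nrtn read 8.78, 8.82 and 8.45 in wild type and 8.65, 8.63 and 8.57 in Tbx1 null, all 3 of the latter lying inside the wild-type range. Its change was -0.070 (95% confidence interval -0.29 to 0.15; limma adjusted p = 0.883), and leaving out wild type replicate 3, 1 or 2 moved it to -0.19, -0.021 or -0.0032. Pspn read 8.37, 8.36 and 8.13 in wild type and 8.33, 8.27 and 7.998 in Tbx1 null, with replicate 3 the lowest of each genotype. Its change was -0.084 (95% confidence interval -0.32 to 0.15; limma adjusted p = 0.863), and it became 0.017 without Tbx1 null replicate 3.

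**Figure D2:**
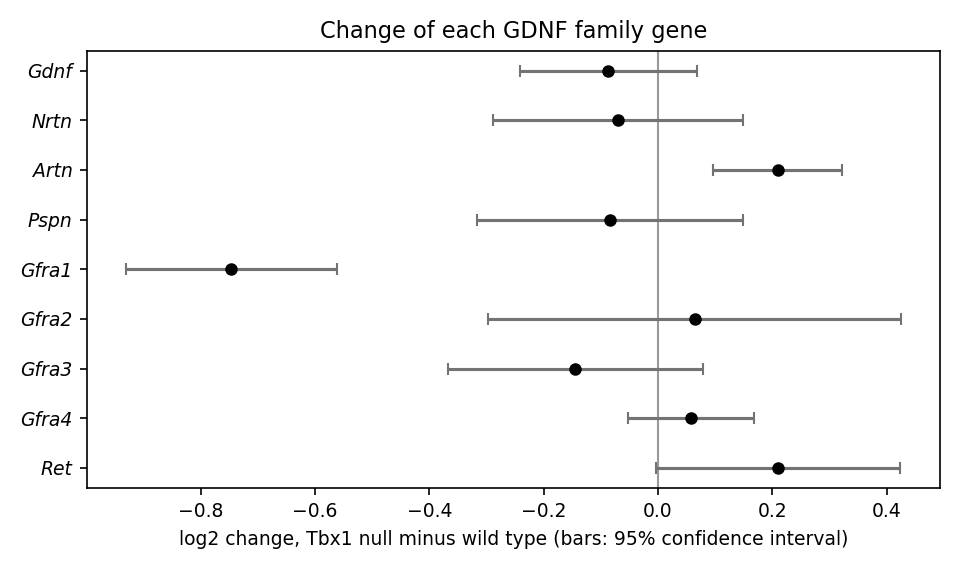
Log2 change, Tbx1 null minus wild type, of each GDNF family gene (points) with its 95% confidence interval from limma (bars), ligands first, then co-receptors and Ret. Gfra1 lies at -0.75, the gene for which the family was chosen; Artn lies at 0.21 with an interval above 0, and the intervals of the other 7 genes include 0.

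The family's genes differed in their spread between arrays of a genotype. Within a genotype, Gfra1 had a larger SD (0.12, pooled over the genotypes) than 82.7% of all genes, while Artn and Gfra4 exceeded only 24.8% and 22.2%. Pspn, Gfra3, Nrtn and Ret exceeded 94.0%, 92.7%, 91.8% and 90.7%, and Gdnf 66.7%. The precision of a comparison thus differed within the family, from an SE of 0.048 for Gfra4 to 0.16 for Gfra2.

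By Pearson correlation over the 6 arrays, the genes most like Gfra1 were Eif1a, a translation initiation factor (r = 0.994), Myf5, which starts the muscle programme in arch mesoderm (r = 0.993), Ccdc40 (r = 0.989), Tafa5 (r = 0.988) and Irf7, an interferon regulatory factor (r = 0.987). The arrays of both genotypes enter these values, so a gene that differs between genotypes correlates for that reason alone. Of these genes Myf5 had the largest difference, from 7.63 ± 0.13 to 6.97 ± 0.14 (log2 change -0.66), and the others changed by -0.15 to -0.17. Within the family the correlation with Gfra1 ran from -0.94 for Artn to 0.48 for Pspn.

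Several cell type marker lists had a median change below 0, as Gfra1 did, and their part in its change was not tested. Within a genotype their arrays were not all ordered as for Gfra1. Tbx1 null replicate 3, lowest for Gfra1 (8.46), had the highest Tbx1 null mean for core mesoderm (9.23) and migratory crest markers (9.11). It had the lowest for primitive erythroid markers (10.38). Among the wild-type arrays, replicate 2, highest for Gfra1 (9.46), had the lowest mean for erythroid (10.67) and migratory crest markers (9.10). Markers of the arch's core mesoderm had 7 of 9 measured genes below 0 (median log2 change -0.34; -0.21 without Tbx1 null replicate 2 and -0.51 without Tbx1 null replicate 3), with 5 lower and 2 higher at an unadjusted p under 0.05. Of all genes, 53.5% lay below 0. At an unadjusted limma p under 0.05, 3.94% of all genes were lower and 5.5% higher. These shares also stand beside the counts of the lists below. Their direction depended on normalisation: 786 genes were lower and 1097 higher here, against 1419 and 899 after quantile normalisation again. With each array centred on its median they were 1386 and 693. The lists were counted again only with an array left out, not under those settings. The log2 of the summed level of the core mesoderm markers ran from 13.19 to 13.22 in wild type and from 13.03 to 13.19 in Tbx1 null. A summed level weighs the brightest probe sets of its list most, here and for the lists below. For core mesoderm the brightest was Ebf3, with a mean of 11.58 in wild type and 11.91 in Tbx1 null. Lhx2, a LIM-homeodomain factor of that mesoderm, fell by 1.56 on the log2 scale (limma adjusted p = 0.000784), and it passed with any array left out. The muscle-lineage factors Tcf21 and Msc changed by -0.53 and -0.13 (adjusted p = 0.324 and 0.675).

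Markers of migratory neural crest and Schwann cell precursors, a lineage that responds to GDNF ligands, had 6 of 8 measured genes below 0 (median -0.32; -0.13 without wild type replicate 1). Of these 3 were lower at an unadjusted p under 0.05, and that count ran from 1 to 4 with an array left out. Their summed level ran from 12.47 to 13.19 in wild type, with replicate 1 the highest, and from 12.33 to 12.57 in Tbx1 null. Sox10, the transcription factor of migrating crest, read 10.21, 8.86 and 9.16 in wild type and 8.60, 8.37 and 8.74 in Tbx1 null. Wild type replicate 1, the highest for Sox10, was also the highest for Gfra3. That match was seen after the values were known and is not particular to crest. The same array was the highest for neuron (7.52), enteric crest (9.52) and core mesoderm markers (9.55), and for Gdnf and Pspn. Which cells carried Gfra3 was not tested. Ngfr, the low-affinity neurotrophin receptor, fell by 0.70 (limma adjusted p = 0.0142) and passed without wild type replicate 1 or 3 only, with adjusted p from 0.0344 to 0.133 when an array was left out. Erbb3, the neuregulin receptor of Schwann cell precursors, changed by 0.00053 (95% confidence interval -0.45 to 0.45).

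Primitive erythroid markers were below 0 in 8 of 8 genes, all at an unadjusted p under 0.05 and none past the threshold (median -0.29). The embryonic globin genes Hba-x and Hbb-y changed by -0.20 and -0.17, and the summed level ran from 15.10 to 15.14 in wild type and from 14.86 to 14.96 in Tbx1 null. Arch mesenchyme markers lay the other way, with 10 of 12 genes above 0 and a median of 0.13. For epithelium 9 of 11 genes lay above 0 (median 0.10; 0.049 without wild type replicate 2), for neurons 4 of 15 (median -0.070; -0.038 without wild type replicate 1) and for endothelium 3 of 8 (median -0.037; 0.011 without Tbx1 null replicate 1 and -0.091 without Tbx1 null replicate 3). No gene of these last 5 lists passed the limma threshold; the unadjusted p was under 0.05 for 6 higher mesenchyme genes, 3 higher epithelial genes, 2 higher and 2 lower neuron genes and 0 endothelial genes. In tissue of mixed cells, fewer cells of a type and less RNA per cell cannot be told apart. No marker is at 0 on the RMA scale, which has no zero.

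**Figure D3:**
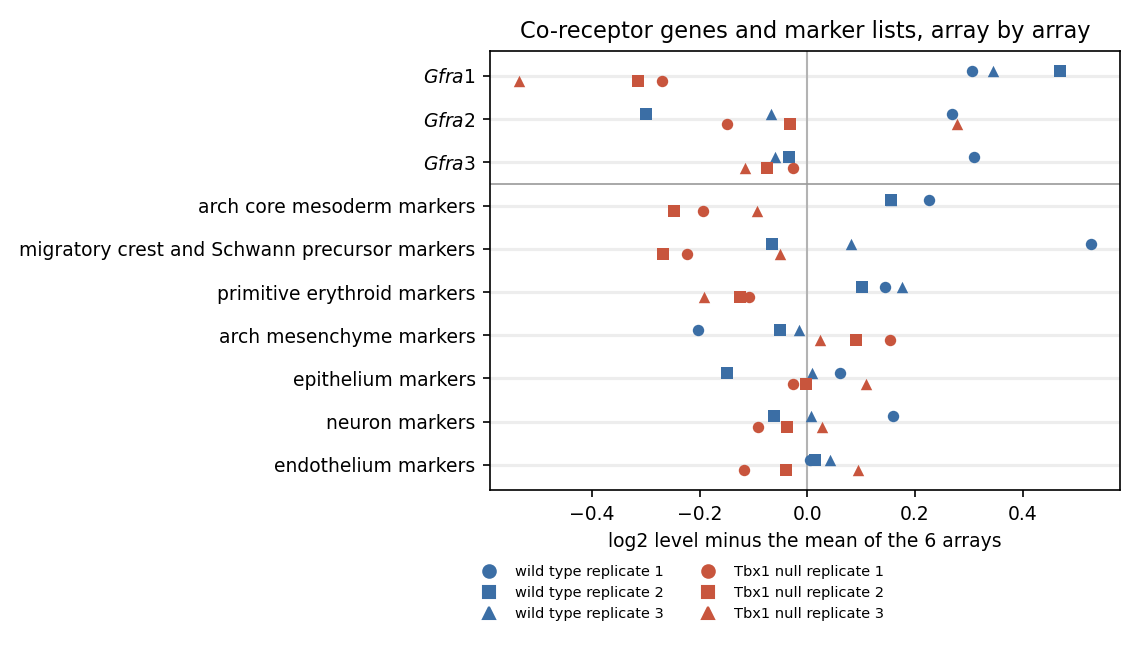
Log2 level on each array minus the mean of the 6 arrays, for the co-receptor genes Gfra1, Gfra2 and Gfra3 (top) and for the mean of each marker list (below), with wild type in blue and Tbx1 null in red. Gfra1, core mesoderm and erythroid markers lie higher in wild type without overlap, and mesenchyme markers lie higher in Tbx1 null. Wild type replicate 1 is the highest array for Gfra3 and in the crest, core mesoderm and neuron rows. Wild type replicates 2 and 3 coincide in the core mesoderm row.

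The arrays high for Gfra2 were high for several lists. The mean log2 level of the epithelial markers was highest on Tbx1 null replicate 3 (10.84) and wild type replicate 1 (10.80), the pair of arrays highest for Gfra2, and lowest on wild type replicate 2 (10.59), the lowest for Gfra2. This was seen after the values were known and is not particular to epithelium: the same pair of arrays was highest for the neuron markers (7.39 and 7.52), the enteric crest markers (9.24 and 9.52) and each of the 3 pathway lists. Which cells carried Gfra2 was not tested.

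Other genes of the pathway were taken from 3 lists. Of 28 listed receptors, co-receptors and RET adaptors beyond the family, 26 were measured. Of these, 2 rose past the threshold, where 0.0853% of all genes did, and none fell. The lists were chosen with earlier results of these data known, so nothing is read from that count. At an unadjusted limma p under 0.05, 2 were lower and 2 higher, and the median change was -0.0035 (-0.0029 to 0.026 with an array left out). The genes that rose were Dok5 and Dok4, adaptors that bind activated RET and other receptor tyrosine kinases. Dok5 rose from 11.24 ± 0.06 to 11.72 ± 0.05 (log2 change 0.48, limma adjusted p = 0.0294) and Dok4 from 9.51 ± 0.03 to 9.87 ± 0.04 (log2 change 0.37, limma adjusted p = 0.0422). With an array left out Dok5 passed only without wild type replicate 3 (adjusted p from 0.0398 to 0.166) and Dok4 in no case (0.0785 to 0.189). With each array centred on its median Dok4 had a change of 0.34 and did not pass (adjusted p = 0.0502).

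The lowest of this list was Lrig1, a transmembrane protein that binds RET and restrains GDNF signalling. It read 9.55, 9.61 and 9.72 in wild type and 9.07, 9.004 and 9.28 in Tbx1 null. The genotypes did not overlap, and its change of -0.51 (95% confidence interval -0.69 to -0.32) did not pass (limma adjusted p = 0.0764). It passed after quantile normalisation again (adjusted p = 0.0471), with an intensity trend and robust estimation (0.0276) and with array weights (0.00757). Ncam1, which encodes the alternative receptor of GFRA1, changed by 0.15 (adjusted p = 0.687), and Gas1, a protein related to the GFRA co-receptors, by -0.079 (adjusted p = 0.753).

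Genes that RET induces in the ureteric bud gave no call: of 12 listed, 11 were measured, 2 lower and 2 higher at an unadjusted limma p under 0.05, with a median of 0.053 (-0.0065 without wild type replicate 2 and 0.015 without Tbx1 null replicate 3). The lowest p belonged to Met, the hepatocyte growth factor receptor, which had a change of 0.34 (adjusted p = 0.177), to Dusp6, a phosphatase of ERK kinases, with -0.18 (adjusted p = 0.264), and to Vsnl1, a calcium sensor, with -0.47 (adjusted p = 0.330). The ETS factors Etv4 and Etv5, the best known targets of RET, changed by -0.015 and 0.080 (adjusted p = 0.970 and 0.810).

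Of 23 listed regulators of Gdnf or Ret, 20 were measured and none passed, with 4 lower and 3 higher at an unadjusted p under 0.05 and a median of 0.011 (-0.021 to 0.034 with an array left out). The homeobox gene Six2 had a change of -0.78, the ligand gene Bmp4 of 0.32 and the zinc-finger factor Gata3, a regulator of Ret in the nephric duct, of 0.48 (limma adjusted p = 0.0577, 0.0577 and 0.0798). Without wild type replicate 3, 2 of the 20 passed. Enteric neural crest markers, the cells in which Ret and Gfra1 are best known to act together, had 7 of 10 measured genes below 0 and none past the threshold. Their median of -0.12 became -0.010 when wild type replicate 1 was left out and -0.20 when replicate 3 was, and 3 were lower and 1 higher at an unadjusted p under 0.05 (1 to 5 lower with an array left out). Edn3, the endothelin ligand, changed by -0.27 and its receptor gene Ednrb by 0.20 (adjusted p = 0.181 and 0.674). Some lists share genes, so their counts are not separate. Sox10 is counted as lower in the regulator, enteric crest and migratory crest lists. Hand2 is counted as higher in the enteric crest and arch mesenchyme lists, and Isl1 in the neuron and core mesoderm lists.

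**Figure D4:**
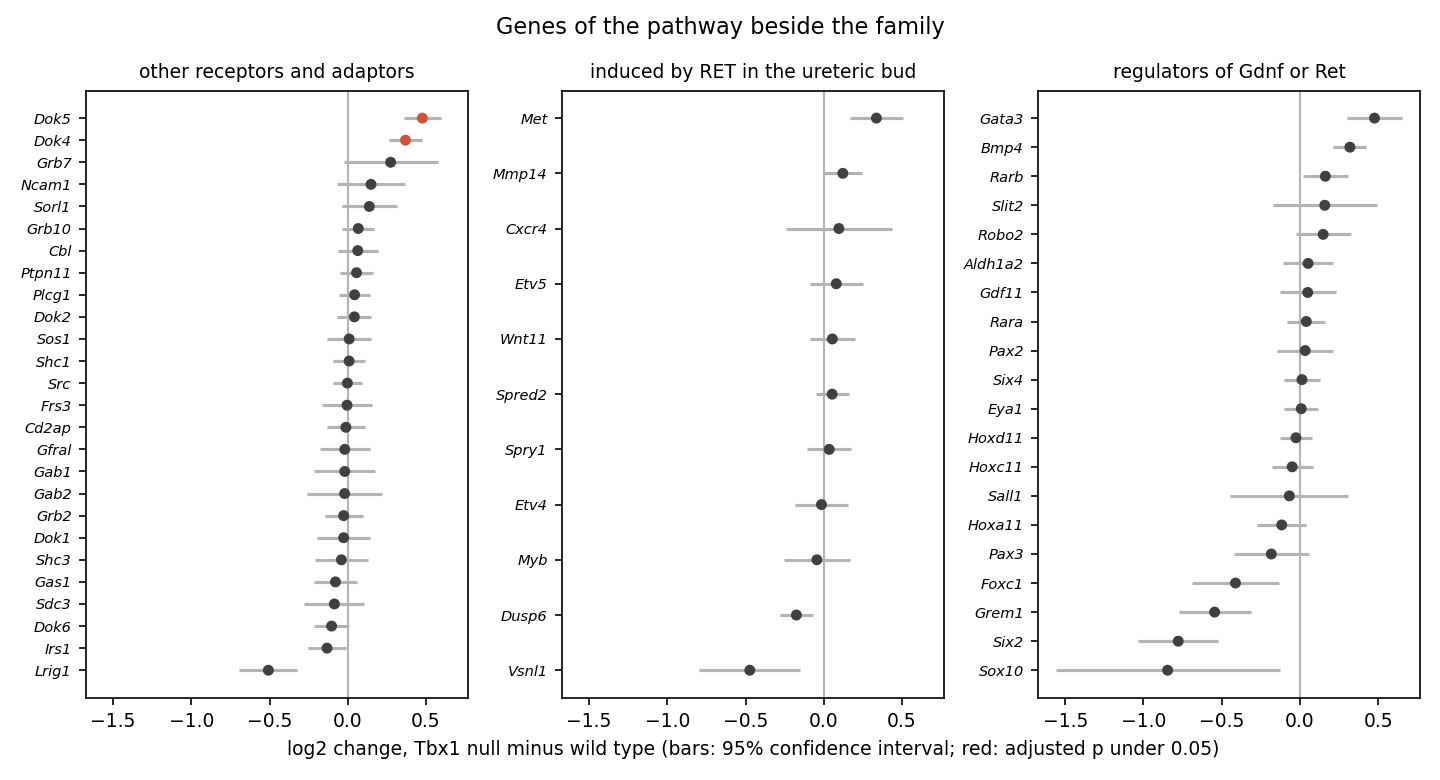
Log2 change, Tbx1 null minus wild type, with 95% confidence intervals (bars), for the measured genes of each of the 3 pathway lists, ordered by size; red points passed an adjusted p of 0.05. Dok5 and Dok4 are the red points, at 0.48 and 0.37; Lrig1, Vsnl1 and Sox10 are the lowest of the lists.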

How the data were processed

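Expression was measured on 6 arrays, 3 per genotype. The deposited values are log2 levels; the submitters' processing notes name RMA and Affymetrix Expression Console 1.1, and the sources used here give neither a summary level nor a filter. RMA gives all arrays a like distribution, which hides changes common to most genes, and dim probe sets can understate changes. Probe sets with 1 symbol in the platform annotation (21789 of 35556) were used, the one of highest mean per gene. The genotypes were compared over all 19938 genes with limma 3.58.1 in R 4.3.3 (lmFit, eBayes, two-sided, no covariate), with Benjamini-Hochberg adjustment over all genes and a threshold of 0.05. The fit was also run on simulated data, drawn as independent normal values with variances from limma's own prior. That run does not cover shared pools or array effects. Lists are described by counts and medians, without a test. Genes named are the 9 of the family, Tbx1 and the 5 most correlated with Gfra1 after the exclusions given above. From each pathway list those past the threshold and the 3 of lowest p are named. From marker lists, those past the threshold and examples from the first 3 listed are named. Ncam1, Gas1, Etv4, Etv5, Edn3, Ebf3, Hand2 and Isl1 were added after their values were seen. The members and lists were chosen with earlier results of these data known. No array copied another. Replicate numbers were not used as pairs in the main fit. The deviations of same-numbered arrays correlated at -0.045, 0.26 and 0.15. Differently numbered arrays were not compared, so these values cannot settle whether the arrays were paired.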

Additional observations from a re-analysis of the deposited data

How the results depend on the processing

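The count of lower genes of the family past the threshold, 1 as reported, ran from 0 to 1 with each array left out and was 0 with every probe set in the fit; the count of higher genes, 0 as reported, was 1 with array weights (Artn, adjusted p = 0.0249). With a replicate block the count of lower genes was 0 and no other member changed its call; 6 genes of all passed then, against 32, and Dok4, Dok5 and Ngfr did not. Over 14 alternatives the change of Gfra1 ran from -0.80 to -0.67. With an array left out Gfra2 ran from -0.069 to 0.21 and Pspn from -0.16 to 0.017, so both turned sign; the other 7 genes kept theirs in all 14 alternatives. The number of genes passing over the whole table was 3 to 20 with an array left out, 46 (30 lower) with centring on the median, 34 (22 lower) with quantile normalisation again, 96 with an intensity trend and robust estimation, 334 with array weights and 4 with every probe set. The cause of these shifts was not tested. Precision is limited by 3 arrays per genotype, and signal over background is unknown.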
